A study of Mus musculus with 12 samples.

Results

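The fibrillar collagen genes measured here were *Col1a1*, *Col1a2*, *Col3a1*, *Col5a1*, *Col5a2* and *Col5a3*. They were chosen by name and family, with earlier results of these data known, and all 6 were present among the 10697 genes of the table. The samples were primary mouse adult fibroblasts, which are cells grown out of biopsies of C57BL6/j mice and kept in culture, of wild-type genotype. Of the 12 libraries, 6 came from cells given 100 µM thymol, a phenolic monoterpene of thyme, for 24 h, and 6 from cells given an equal volume of the solvent DMSO. The labels do not say whether the 6 numbered samples of a group were separate cultures or animals, so p-values measure the spread between these samples, which may be technical.

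Fibrillar collagens are secreted as procollagens, trimmed outside the cell, and packed side by side into the striated fibrils that give connective tissue its tensile strength. *Col1a1* and *Col1a2* encode the chains of type I collagen, the main fibril former of skin, tendon and bone, and the *Col1a1* chain outnumbers the *Col1a2* chain in the trimer. *Col3a1* encodes the single chain of type III collagen, which mixes with type I in extensible tissues such as skin and vessel wall. *Col5a1* and *Col5a2* encode the chains of type V collagen, a less abundant collagen that nucleates fibrils and limits their width, and *Col5a3* encodes a further type V chain of restricted expression. Fibroblasts are the main source of these proteins.

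*Col1a1* lies on chromosome 11 (94936224 to 94953042, plus strand) and *Col1a2* on chromosome 6 (4504814 to 4541544, plus strand) in the mouse build GRCm38. *Col3a1* (45311538 to 45349706, plus strand) and *Col5a2* (45374321 to 45503282, minus strand) are neighbours on chromosome 1. Their 3′ ends face each other across 24.6 kb. *Col5a1* lies on chromosome 2 (27886425 to 28039514, plus strand) and *Col5a3* on chromosome 9 (20770050 to 20815067, minus strand). The annotation places other short or non-coding genes within 5 of the 6 loci, none of which was in the table.

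RefSeq promoter windows of GRCm38.p6 were at hand for 4 of the 6 genes. The 250 bases before the start site are shown for *Col3a1*, the gene that changed most, and for *Col1a2*, which did not pass the test, so that the 2 can be read beside the values that follow. Capitals mark every match, on either strand, to any of 3 promoter motifs. The motif of the CCAAT box is spelled like its name, that of the TATA box is TATAAA, and that of the GC box is GGGCGG. The windows are chr1:45311288-45311537 and chr6:4505368-4505617, both on the plus strand, and the RefSeq start of *Col1a2* lies inside the span given above.
Col3a1: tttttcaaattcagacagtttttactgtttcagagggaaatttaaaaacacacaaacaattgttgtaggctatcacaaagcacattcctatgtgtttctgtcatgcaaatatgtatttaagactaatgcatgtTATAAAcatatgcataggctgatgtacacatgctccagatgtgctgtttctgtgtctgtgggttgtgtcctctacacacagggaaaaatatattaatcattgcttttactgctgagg
Col1a2: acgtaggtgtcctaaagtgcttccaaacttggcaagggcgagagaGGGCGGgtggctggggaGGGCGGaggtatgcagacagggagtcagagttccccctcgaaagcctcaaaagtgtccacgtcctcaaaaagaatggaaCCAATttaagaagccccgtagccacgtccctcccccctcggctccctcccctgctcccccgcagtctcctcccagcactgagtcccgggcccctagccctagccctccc

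The windows differed in composition. G and C made up 35.2% of the *Col3a1* window and 62.0% of the *Col1a2* window, against a median of 52.4% over 32851 windows of the same length. The *Col3a1* window held 1 TATAAA, from 117 to 112 bases before the start, and neither of the other motifs. The *Col1a2* window held 1 CCAAT, from 109 to 105 bases before the start, and 2 GGGCGG, and no TATAAA. The windows of *Col5a1* (76.4% G and C) and *Col5a3* (62.8%) each held 2 matches to GGGCGG on either strand, and that of *Col5a3* also held 1 CCAAT. Of all windows, 33.8% held CCAAT, 12.4% held TATAAA and 32.7% held GGGCGG. These matches are letters in a window and not measured binding sites.

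Levels are given as log2 CPM, the log2 of read counts scaled to the size of the library, as the authors deposited them. QuantSeq reads the 3′ end of polyadenylated RNA, at about 1 read per transcript, so transcript length does not weigh on levels set side by side. Other differences between genes in how reads are gained were not tested, so the order and ratios of genes below are those of reads. The libraries held between 5435985 and 9049796 reads over the retained genes, recovered from the equal steps of the low values. Of 14 listed fibroblast markers that are not collagens, 12 were in the table, among them the defining *Thy1* (8.29 log2 CPM with DMSO), *Pdgfrb* (6.55) and *Pdgfra* (4.40). Macrophage markers were measured as well, 19 of the 20 listed, including *Csf1r* at 9.02 log2 CPM, *Cd68* at 8.80, *Adgre1* at 7.61 and *Ptprc* at 7.29 with DMSO. The cultures thus held marker transcripts of both cell types, and the levels below are those of the whole culture, in which fewer cells of a type and less RNA per cell cannot be told apart.

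The 6 genes spanned a wide range of levels in the DMSO libraries. *Col1a1* stood highest, at 11.95 ± 0.071 log2 CPM (SD, n = 6), and *Col1a2* followed at 11.71 ± 0.058. Averaged over all 12 libraries they ranked 19 and 22 among the 10697 genes. The type V chains *Col5a2* (9.97 ± 0.091) and *Col5a1* (9.12 ± 0.088) came next, and *Col3a1* stood at 8.88 ± 0.085. *Col5a3* was far below the others at 3.93 ± 0.54, with 59 to 178 reads per library. The 6 DMSO values of *Col1a1* lay above those of *Col1a2*, the latter above those of *Col5a2*, and those of *Col5a2* above those of *Col5a1*. *Col5a1* and *Col3a1* were the closest neighbours in this order, and the lowest *Col5a1* value (9.03) was still above the highest *Col3a1* value (8.98).

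The comparison of thymol with DMSO asked how the cells' transcripts responded to the compound. *Col3a1* and *Col1a1* fell with thymol, by about 31.3% and 17.4% of their DMSO level. *Col1a2*, *Col5a1*, *Col5a2* and *Col5a3* did not pass the test. Of all 10697 genes, 1.57% were lower at an adjusted p-value under 0.05 in limma, against 2 of the 6 fibrillar collagen genes. The 6 thymol values lay below the 6 DMSO values for the same 2 genes, and for 1.16% of all genes. Precision rises with level: among the 233 genes with a mean of at least 9 log2 CPM, where 4 of the 6 collagen genes stand, 4.72% were called lower, against 1 of these 4. The median log2 fold change was -0.17 over the 6 genes and 0.0026 over all genes.

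**Figure D1:**
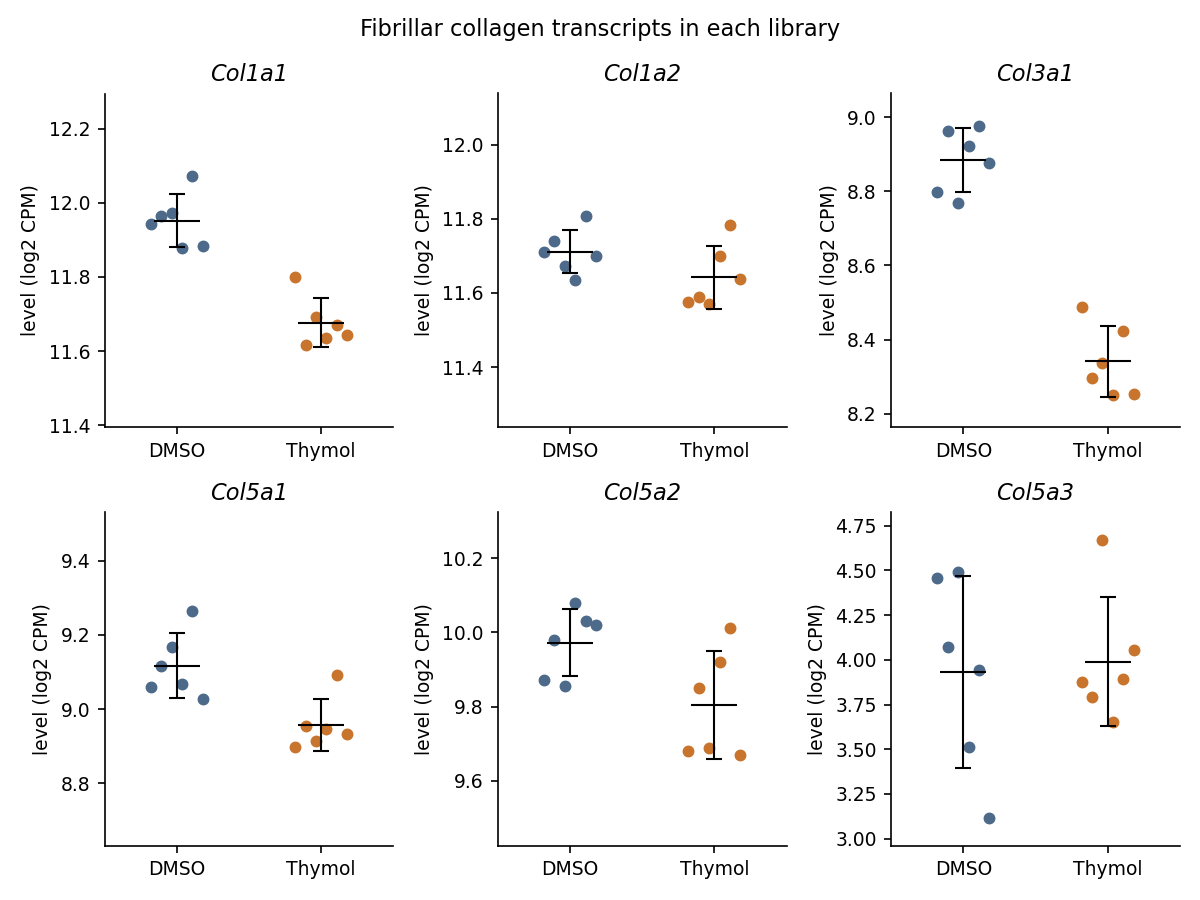
Level of each fibrillar collagen gene in log2 CPM (vertical axes, each with its own range) in the 6 DMSO and 6 thymol libraries, ordered by replicate number from left to right within a group. Points are libraries, the horizontal line is the mean and the bars are 1 SD. For *Col3a1* the highest thymol value, 8.49, lies under the lowest DMSO value, 8.77, and for *Col1a1* 11.80 lies under 11.88, while the groups overlap in the other panels.

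*Col3a1*, the type III chain, had the largest difference of the 6. Its DMSO values ran from 8.77 to 8.98 log2 CPM, with a median of 8.90, and its thymol values from 8.25 to 8.49, with a median of 8.32. All 6 thymol libraries stood below all 6 DMSO libraries. Its log2 fold change, thymol minus DMSO, came to -0.54 ± 0.055 (SE), with a 95% interval from -0.65 to -0.43 and a limma adjusted p-value of 4.4e-10. This rested on a mean of 3330 reads per DMSO library and 2133 reads per thymol library, so the values of this gene are not limited by counting. The gene passed the threshold in each of the 12 fits that left out 1 library, with a log2 fold change between -0.57 and -0.52. Taken by library number, the difference was -0.43 among odd and -0.65 among even numbers. Whether these 2 values differ was not tested, and the labels name no batch. A principal component is an axis of joint variation, here over genes with a mean of at least 5 log2 CPM. On the second, odd-numbered DMSO libraries stood at 4.75 to 6.64 and even-numbered ones at -1.79 to 1.02. The thymol libraries overlapped there, at -7.07 to 5.94 for odd and -5.54 to -3.09 for even numbers.

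*Col1a1*, the more abundant chain of type I collagen, fell by less on the log2 scale but lost more reads. Its DMSO values ran from 11.88 to 12.07 log2 CPM (median 11.95) and its thymol values from 11.62 to 11.80 (median 11.66). All 6 thymol libraries stood below every DMSO library. The log2 fold change was -0.28 ± 0.044 (SE), with a 95% interval from -0.36 to -0.19 and a limma adjusted p-value of 2.9e-05. The odd-numbered (-0.27) and even-numbered (-0.28) libraries gave nearly the same difference. Without the mean-variance trend in the variance model *Col1a1* no longer passed (adjusted p = 0.066), nor did it in the odd-numbered libraries alone (adjusted p = 0.068).

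*Col1a2*, the partner chain of type I collagen, did not pass the test. Its DMSO values ran from 11.64 to 11.81 log2 CPM (median 11.71) and its thymol values from 11.57 to 11.78 (median 11.61). The groups overlapped, with 3 thymol libraries inside the range of the DMSO libraries and 3 below it. The difference came to -0.069 ± 0.045 (SE, adjusted p = 0.61 in limma), and its 95% interval, from -0.16 to 0.021, did not reach the value of *Col1a1*. With quantile normalization the sign of the *Col1a2* difference turned, to 0.022.

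The 2 main type V chains, *Col5a1* and *Col5a2*, had nearly equal differences, and neither passed the threshold. *Col5a1* ran from 9.03 to 9.27 log2 CPM with DMSO (median 9.09) and from 8.90 to 9.09 with thymol (median 8.94). Its log2 fold change was -0.16 ± 0.051 (SE), with an unadjusted p-value in limma of 0.0028 and an adjusted one of 0.088. The thymol library nearest the DMSO values was replicate 5, and without it *Col5a1* passed (-0.19, limma adjusted p = 0.031). *Col5a2* ran from 9.86 to 10.08 log2 CPM with DMSO (median 10.00) and from 9.67 to 10.01 with thymol (median 9.77). The difference came to -0.17 ± 0.054 (SE, adjusted p = 0.087 in limma), and it passed without thymol replicate 5 (-0.21, limma adjusted p = 0.012) or thymol replicate 4 (-0.19, limma adjusted p = 0.048), and in the even-numbered libraries alone (-0.21, limma adjusted p = 0.036). Of the 6 thymol libraries, 5 stood below every DMSO library for *Col5a1* and 4 for *Col5a2*. *Col5a2* thus differed by far less than *Col3a1*, its neighbour on chromosome 1, although the difference between these 2 changes was not tested.

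*Col5a3*, the minor type V chain, had the widest spread between libraries of the 6 and did not pass the test. Its DMSO values ran from 3.12 to 4.49 log2 CPM (median 4.01) and its thymol values from 3.65 to 4.67 (median 3.88). The groups overlapped over most of their range. The difference came to 0.058 ± 0.20 (SE, adjusted p = 0.96 in limma), with a 95% interval from -0.34 to 0.45, which holds the *Col1a1* value as well as no change. The lowest DMSO libraries, replicates 6 and 4, held 59 and 74 reads of the gene, and the difference turned negative without either of them or without thymol replicate 3, the highest thymol library.

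The share of reads showed what these changes amounted to in each library. The 6 genes took 0.938% ± 0.037 (SD, n = 6) of the recovered reads with DMSO and 0.820% ± 0.029 (SD, n = 6) with thymol. The DMSO libraries ran from 0.912% to 1.01% (median 0.921%) and the thymol libraries from 0.799% to 0.874% (median 0.808%). The ranges did not overlap, and no test was made of this sum because its members had been chosen with earlier results known. The mean share was lower by 12.5% of its DMSO value. *Col1a1* supplied 59.3% of the lost share, *Col1a2* 13.5%, *Col3a1* 12.7%, *Col5a2* 9.43% and *Col5a1* 5.10%. These parts are group means, and those of *Col1a2*, *Col5a1* and *Col5a2* come from differences that did not pass the test.

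**Figure D2:**
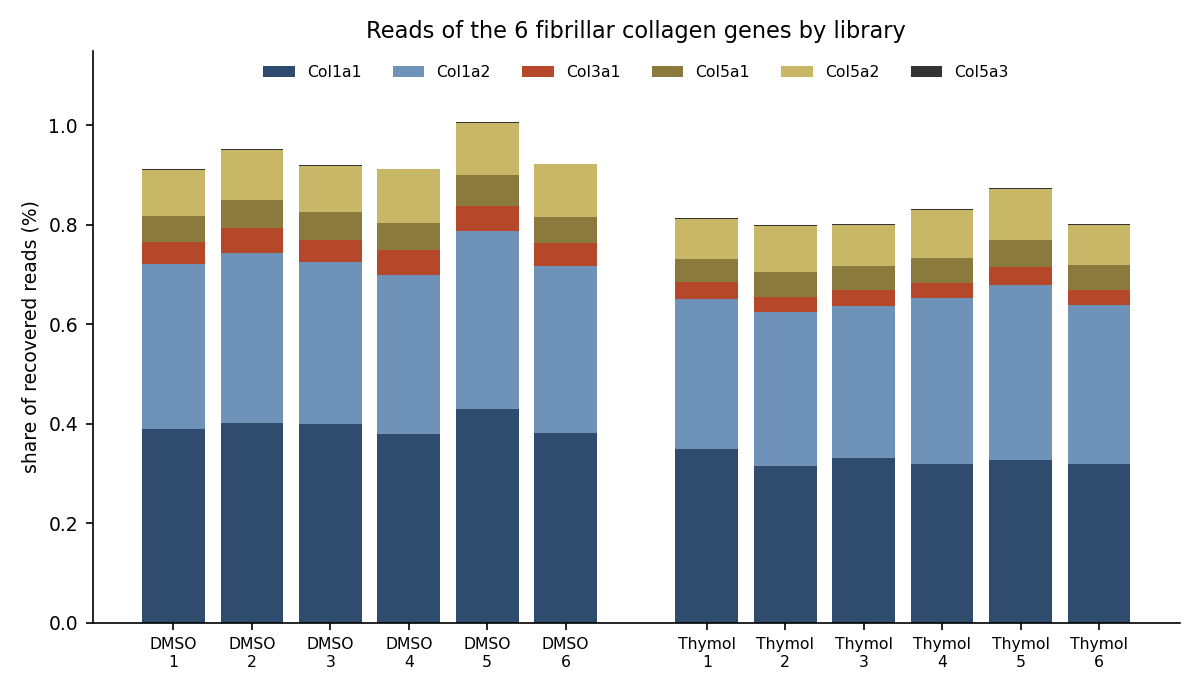
Share of all recovered reads (vertical axis, %) taken by the 6 fibrillar collagen genes in each of the 12 libraries, stacked by gene, with the DMSO libraries on the left. The tallest thymol bar, replicate 5 at 0.874%, is shorter than the shortest DMSO bar at 0.912%, and the *Col5a3* segment is barely visible.

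Within the collagen reads the type I chains made up nearly the same part in both groups, 78.1% with DMSO and 78.9% with thymol. Inside that part the balance moved. *Col1a1* went from 42.3% ± 0.82 to 39.9% ± 2.0 of the collagen reads and *Col1a2* from 35.8% ± 0.52 to 39.0% ± 1.4. *Col3a1* went from 5.05% ± 0.25 to 3.95% ± 0.22, and *Col5a1* and *Col5a2* together kept close to their part, at 5.93% and 10.7% with DMSO and 6.05% and 10.9% with thymol. Errors are the SD over 6 libraries. Shares of a fixed sum move against each other by construction.

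Ratios between chains were therefore tested directly. Each ratio was taken within a library, so that the scaling of the library cancels, and the group means of the log2 ratio were compared by exact permutation (two-sided, all 924 relabellings). The smallest p-value this design can give is 0.00216. The 5 ratios tested were chosen for chains that share a trimer or a fibril, and p-values were adjusted over the 5.

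The ratio of the type I chains fell with thymol. In the DMSO libraries the log2 ratio of *Col1a1* to *Col1a2* was tight, from 0.18 to 0.30 (median 0.24), and in the thymol libraries it spread from -0.11 to 0.22 (median 0.016). Thymol replicate 1 fell inside the DMSO range and the other 5 under it. The mean went from 0.24 ± 0.039 to 0.034 ± 0.12 (SD, n = 6 each), or from 1.18 to 1.02 reads of *Col1a1* per read of *Col1a2*. The difference of -0.21 passed the exact permutation test (p = 0.0065, adjusted p = 0.011).

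*Col3a1* fell more than either type I chain. The log2 ratio of *Col3a1* to *Col1a1* ran from -3.20 to -2.95 (median -3.05) with DMSO and from -3.39 to -3.25 (median -3.34) with thymol. The difference of -0.27 had an exact permutation p-value of 0.00216, or 0.0054 when adjusted. The log2 ratio of *Col3a1* to *Col1a2* ran from -2.91 to -2.71 (median -2.83) with DMSO and from -3.45 to -3.09 (median -3.33) with thymol, a difference of -0.47 with the same exact permutation p-values. For both ratios the 6 thymol libraries lay below the 6 DMSO libraries. In linear terms there were 0.141 reads of *Col3a1* per read of *Col1a2* with DMSO and 0.101 with thymol.

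No change was detected in the type V ratios. The log2 ratio of *Col5a2* to *Col5a1* averaged 0.86 ± 0.13 (SD, n = 6) with DMSO and 0.85 ± 0.096 (SD, n = 6) with thymol. This is a difference of -0.0081 against a spread between libraries of 0.11 (exact permutation p = 0.898, adjusted p = 0.898). There were 1.81 reads of *Col5a2* per read of *Col5a1* with DMSO and 1.80 with thymol. The log2 ratio of *Col5a3* to *Col5a1* differed by 0.22 against a spread of 0.45 (exact permutation p = 0.422, adjusted p = 0.528).

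**Figure D3:**
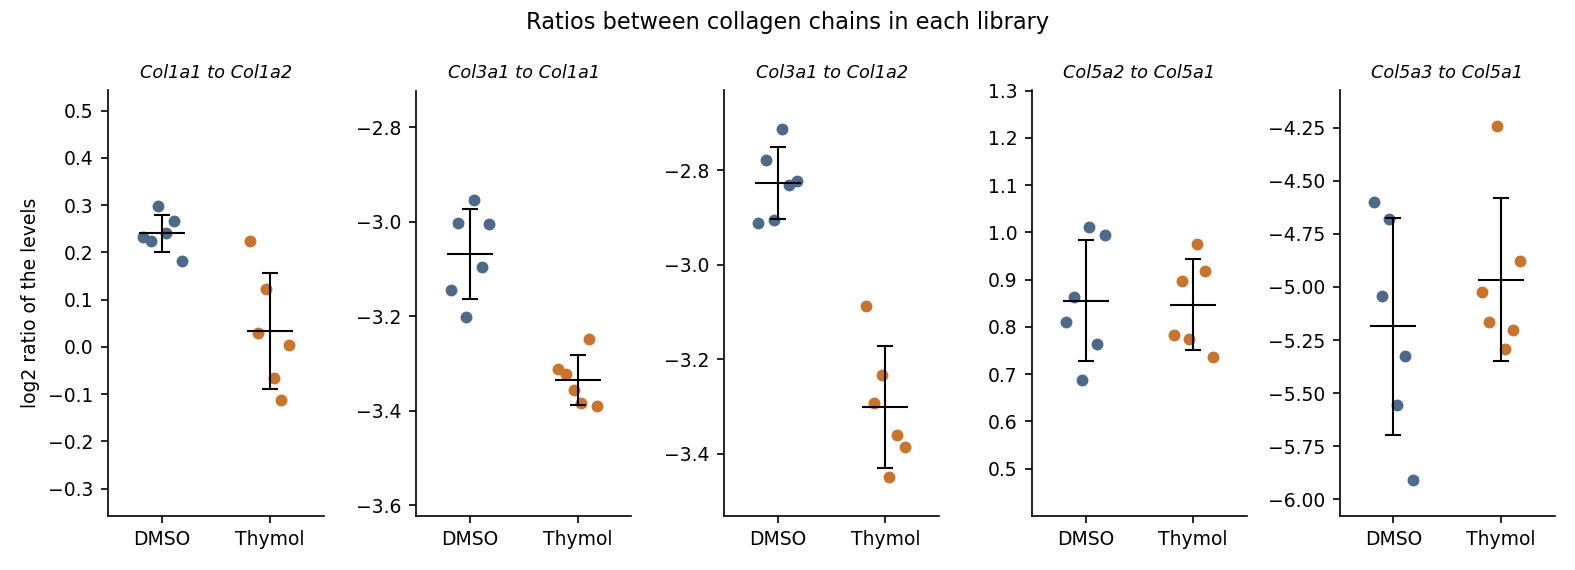
Log2 ratio of the levels of 2 collagen chains within a library (vertical axes, each with its own range) for the 5 ratios tested, in the 6 DMSO and 6 thymol libraries. Points are libraries, lines are means and bars are 1 SD. The thymol points lie below all DMSO points for both *Col3a1* ratios, 5 of 6 do for *Col1a1* to *Col1a2*, and the type V ratios overlap.

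With each group mean removed, Pearson correlations over the 12 libraries between the 15 pairs of genes ran from -0.62 (*Col5a2* and *Col5a3*) to 0.74 (*Col1a2* and *Col5a1*). Of the 10 pairs without *Col5a3*, 9 had a positive r, and the exception was *Col1a1* and *Col5a2* (-0.33). *Col1a1* and *Col1a2* had an r of 0.16, and *Col1a1* and *Col3a1* an r of 0.56. Genes whose deviations were closely like the mean deviation of the 6, among 5389 other genes with a mean of at least 5 log2 CPM, included *Nudt16l1* (r = 0.95), *Hnrnpl* (0.91), *Erp29* (0.89) and *Pebp1* (0.87). This likeness followed *Col5a3*, the most variable of the 6: with it left out of the mean, these 4 genes had r between 0.066 and 0.37. These correlations describe 12 libraries that share their scaling, over many genes, and carry no test.

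Genes that act on fibrillar collagens were taken from 5 lists, written by role and with earlier results of these data known. The table held 88 of their genes, of which 8 fell and 0 rose at an adjusted p-value under 0.05 in limma. At an unadjusted p-value under 0.05 there were 28 of either direction. No share over all genes was taken at that level, so this count and the unadjusted counts below have no background beside them. The 8 are 9.09% of the measured genes of the lists against the 1.57% of all genes that were lower, and 0.654% of all genes were higher. The lists were not drawn independently of these results, so the counts are a description. The other fibrillar collagens, of cartilage and of minor fibrils, were represented by *Col11a1* (log2 fold change -0.27, limma adjusted p = 0.056) and *Col27a1* (-0.11, limma adjusted p = 0.91), and neither passed.

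The genes that turn the chains into a secreted, crosslinked trimer differed in both directions. Of 27 measured genes of procollagen folding, trimming and crosslinking, 1 was lower and 26 did not pass, with a median log2 fold change of -0.017 and 8 genes at an unadjusted p-value under 0.05. *Plod2*, a lysyl hydroxylase that prepares collagen for crosslinking, was the one that fell, by 0.30 ± 0.079 (SE) on the log2 scale (adjusted p = 0.021 in limma). It lost its call without thymol replicate 1, 3 or 6 or DMSO replicate 4 or 6. *Serpinh1*, the collagen chaperone, differed by -0.017 ± 0.057 (SE) and *P4hb*, a subunit of prolyl hydroxylase, by 0.035 ± 0.047 (SE), each with an adjusted p-value of at least 0.86 in limma. *Lox*, the main crosslinking oxidase, differed by -0.14 (limma adjusted p = 0.16) and *Loxl2* by -0.18 (limma adjusted p = 0.074), whereas the related oxidases *Loxl1* (0.14, adjusted p = 0.27) and *Loxl3* (0.14, adjusted p = 0.36) were on the other side of 0 without passing.

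Among 17 measured proteins that bind to fibrils or run beside them, 3 were lower, 0 were higher and 14 did not pass, with a median log2 fold change of -0.13. *Col12a1*, a collagen that decorates the surface of type I fibrils, fell from 7.82 ± 0.083 to 7.57 ± 0.082 log2 CPM, with errors as SD over 6 libraries and an adjusted p-value of 0.0078 in limma. *Fmod*, which encodes fibromodulin, a proteoglycan that regulates fibril assembly, had a log2 fold change of -1.30 (limma adjusted p = 0.00087), from values of 3.09 to 3.83 log2 CPM with DMSO to values of 1.32 to 2.74 with thymol. With a pseudocount of 10 the *Fmod* difference was -0.53, and in the odd-numbered libraries alone the call was lost (adjusted p = 0.065 in limma). *Prelp*, a related proteoglycan, had a log2 fold change of -0.43 (limma adjusted p = 0.020), and lost its call without DMSO replicate 5 or thymol replicate 3. *Bgn*, *Sparc* and *Fn1*, all abundant, differed by 0.021, -0.095 and 0.076 and did not pass.

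Collagen receptors and turnover genes gave 2 falls among 16 measured genes, with a median log2 fold change of -0.080. *Itga1*, an integrin chain that binds collagen, had a log2 fold change of -0.39 (limma adjusted p = 0.035). This call held in only 4 of the 12 fits that left out 1 library. These were the fits without DMSO replicate 2 or 3 or thymol replicate 1 or 4. *Itga11*, another integrin chain of the list, differed by -0.11 (limma adjusted p = 0.85). *Timp3*, an inhibitor of matrix proteases, had a log2 fold change of -0.22 (limma adjusted p = 0.0043). The receptor gene *Ddr2* (0.076) and the membrane-bound collagenase *Mmp14* (-0.084) did not pass, with adjusted p-values in limma of 0.65 and 0.64.

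Of 26 measured regulators of collagen transcription and mRNA, 2 fell, both of them ligands of the TGF-beta family, which drive collagen synthesis in fibroblasts. *Tgfb2* had the larger change. It ran from 6.47 to 6.79 log2 CPM with DMSO (median 6.69) and from 5.83 to 6.41 with thymol (median 6.09), so that the groups did not overlap. The difference came to -0.58 ± 0.088 (SE) on the log2 scale, with an adjusted p-value of 1.1e-05 in limma. *Tgfb3* fell as well (-0.32 ± 0.072, SE, adjusted p = 0.0047 in limma), and *Tgfb1* differed by -0.090 (limma adjusted p = 0.89). The receptor genes *Tgfbr1* (0.25) and *Tgfbr2* (0.070), the signal carriers *Smad2* (0.067) and *Smad3* (0.047) and the TGF-beta target *Ccn2* (-0.099) did not pass. The median over the 26 was 0.0050. Without the mean-variance trend, *Tgfb2* (adjusted p = 0.027 in limma) and *Fmod* (0.018) were the 2 of the 8 listed genes that still passed. *Tgfb3* (0.16), *Timp3* (0.25), *Col12a1* (0.11), *Plod2* (0.31), *Prelp* (0.23) and *Itga1* (0.27) did not.

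**Figure D4:**
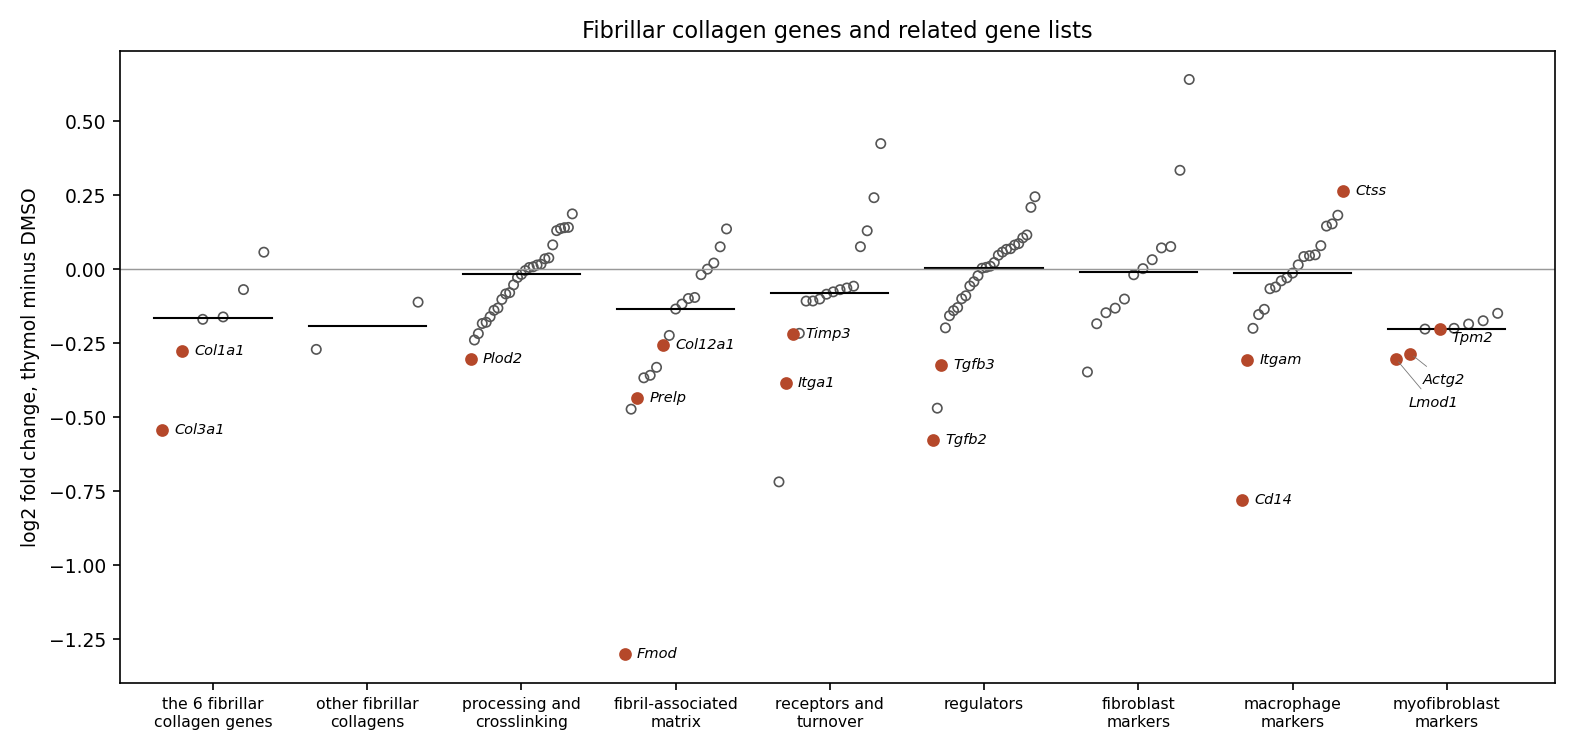
Log2 fold change, thymol minus DMSO (vertical axis), of the 6 fibrillar collagen genes, of the lists of genes that act on them and of 3 lists of cell type markers. Filled points passed a limma adjusted p-value of 0.05 and are named, open points did not, and black lines are list medians. *Col3a1* at -0.54 is close to *Tgfb2* at -0.58, and the fibroblast markers hold no filled point.

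Fibroblast markers differed in both directions. Of the 12 measured fibroblast markers 0 passed in limma, with 6 at an unadjusted p-value under 0.05 in either direction, and their median log2 fold change was -0.0082. The count was 1 in 4 of the 23 alternatives, among them voom on the recovered reads. The 6 thymol libraries lay below all DMSO libraries for *Fbln2* (-0.15, adjusted p = 0.075 in limma) and *Prrx1* (-0.18, adjusted p = 0.092 in limma). Of the defining markers, *Pdgfra* differed by 0.33, *Thy1* by -0.13 and *Pdgfrb* by 0.0021, none of them passing. Summed over the list, the fibroblast markers ran from 12.83 to 12.90 log2 CPM with DMSO and from 12.77 to 12.91 with thymol. The highest markers, *Vim* (11.38 log2 CPM with DMSO) and *S100a4* (11.34), weigh most in this sum. The cultures also held macrophage transcripts, and which cells gave the reads of these 2 genes was not tested. A comparison with the mean log2 level of the 12 markers in each library was added after the data had been seen. Relative to that mean, *Col3a1* differed by -0.56 (limma adjusted p = 3.6e-10) and *Col1a1* by -0.29 (limma adjusted p = 3.7e-05). The mean counts each marker equally, so *Fbln1* (0.64, at 2.63 log2 CPM with DMSO) weighs as much as *Thy1*, *Fbln2* or *Prrx1*, which were lower. Of the 12 markers, 6 were lower and 6 higher. Whether the fibroblast content of the cultures changed was not tested.

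The macrophage markers summed to between 14.32 and 14.42 log2 CPM with DMSO and between 14.32 and 14.55 with thymol. *Lyz2* (13.61 log2 CPM with DMSO) weighs most in this sum. Of the 19, *Cd14* (-0.78) and *Itgam* (-0.31) fell and *Ctss* (0.26) rose, with a median of -0.013 over the list. The defining *Cd68* differed by 0.18, *Csf1r* by -0.15, *Adgre1* by -0.14 and *Ptprc* by -0.066, none of them passing. The 8 myofibroblast markers, contractile genes of activated fibroblasts, were all lower, with a median of -0.20, and *Lmod1* (-0.30), *Actg2* (-0.28) and *Tpm2* (-0.20) passed, the last of these not without thymol replicate 3. All 8 were at an unadjusted p-value under 0.05 in limma. Over the 23 alternatives the count of 3 ran from 0, as without the mean-variance trend, to 8. With 1 library left out the count ran from 2 to 7. It was 5 or more without DMSO replicate 3 or thymol replicate 1, 4 or 5. The defining markers *Acta2* (-0.20), *Tagln* (-0.19) and *Cnn1* (-0.20) had adjusted p-values of 0.075, 0.074 and 0.060 in limma. The sum over all 8 myofibroblast markers ran from 13.91 to 14.07 log2 CPM with DMSO and from 13.62 to 14.02 with thymol. The part of these cell states in the collagen result was not tested. Of 14 markers of epithelial, endothelial, lymphoid, fat, muscle and cartilage cells, 4 were in the table, and 0 passed in limma or with voom, with 1 at an unadjusted p-value under 0.05 in limma.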

How the data were processed

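Transcripts of primary mouse adult fibroblasts were measured by QuantSeq 3′ mRNA sequencing in 6 thymol and 6 DMSO libraries. The authors aligned the reads to GRCm38 with STAR 2.5.3, counted them with HTSeq 0.6.1, dropped genes that did not reach 30 reads in 6 or more samples and applied TMM scaling (trimmed mean of M-values). The deposited values are log2 CPM with a prior count. Each of the 12 columns matched 1 library name in the labels.

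Whole reads were recovered from the equal steps of the unlogged values (of the values below 200 reads, 100% came within 0.02 of an integer, prior of 1.96 reads on average) and used for shares. The study fitted its counts with a quasi-likelihood model, whereas the log2 values were fitted here with limma 3.58.1 in R 4.3.3 (eBayes with a mean-variance trend, 2 groups, no covariate), two-sided, with Benjamini-Hochberg adjustment over all 10697 genes at 0.05. Intervals are 95% limma intervals. The procedure was tested on simulated reads. The changes set there were larger than those of *Col1a1*, *Col5a1* and *Col5a2*, so that run does not speak to changes of their size. Members and lists were chosen with earlier results of these data known. The genes named are the 6 members, the genes of each list past the threshold (at most 5 per direction), the defining or central genes of a list, and the 5 most similar profiles, of which 1 is not reported here. Central genes of a list that did not pass were picked after their values were seen. The labels give no batch. PCR reads are not independent molecules, so read numbers speak of counting error only.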

Additional observations from a re-analysis of the deposited data

Results flagged for a closer look

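Of 24 groups of 6 libraries examined (each gene, the summed share and each ratio, in each treatment), 1 held a library that stood apart from its group by Dixon's criterion, where chance gives about 1.2. This was *Col5a1* in thymol replicate 5, at 9.09 log2 CPM, with the next highest thymol library at 8.95. The gap was 0.711 of the whole range of the group, above the 95% critical value for 6 samples. The same library was the deepest, with 9049796 reads, and had the highest *Col1a2* and *Col5a2* levels of the thymol libraries. Without it, 4 of the 6 genes passed the threshold in place of 2. The part of depth in this was not tested.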

How the results depend on the processing

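*Col3a1* kept its direction and its call in all 23 alternatives, with log2 fold changes from -0.65 to -0.43. *Col1a1* kept its direction in all 23 and its call in 21. The count of 2 collagen genes past the threshold became 1 without the mean-variance trend and 1 in the odd-numbered libraries alone, and it ran from 2 to 4 when 1 library was left out. Over all genes, 238 passed in the reported fit, 57 without the trend and 70 in the odd-numbered libraries. Of the listed genes that act on collagen, 8 passed, against 2 without the trend and 3 in the odd-numbered libraries. Cutting to 6 libraries lowers the number of samples, but the odd-numbered and even-numbered sets both hold 6 and gave unlike counts. The cause of these changes was not tested.

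The labels number the libraries 1 to 6 in each group and do not say whether a shared number marks a pair. Deviations of same-numbered libraries correlated between -0.051 and 0.27, which cannot decide this. With the number as a replicate block, *Col5a1* (adjusted p = 0.035 in limma) and *Col5a2* (0.014) joined the 2 that pass, so that 4 collagen genes, 13 listed genes and 332 genes passed. For the ratios, sign flips over the 6 numbers cannot give a p-value under 0.031, and the unchanged differences of -0.21, -0.27 and -0.47 for *Col1a1* to *Col1a2*, *Col3a1* to *Col1a1* and *Col3a1* to *Col1a2* then had an adjusted p-value of 0.052. The *Col3a1* to *Col1a1* difference was -0.16 in odd-numbered and -0.38 in even-numbered libraries, and the *Col3a1* to *Col1a2* difference -0.34 and -0.60. The *Col5a2* to *Col5a1* difference changed sign, to 0.071 in the odd-numbered libraries and between -0.041 and 0.023 with 1 library left out. *Col1a2* differed by 0.022 with quantile normalization, and *Col5a3* by -0.15 in the odd-numbered libraries and by -0.11 to 0.17 with 1 library left out. The summed share differed by -0.13 to -0.10 percentage points in all 16 alternatives. *Col5a3*, at 59 to 178 reads per library, varied most between libraries (SD 0.54 with DMSO), and the part of depth in this was not tested.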
